A study of Mus musculus with 4 samples.

Results

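Cluster 3 was a group of 61 nuclei from mouse thymus that the authors labelled thyAD I, one of their thymic adipocyte classes. The nuclei were taken by 2 entries of the deposited table of nuclei, the label thyAD I and the number 3 in the joint RNA and chromatin clustering at resolution 0.8. They were 61 of the 317 nuclei (19.2%) with a complete row in the table used here. Their open chromatin is described here with that of the 85 thyAD I nuclei of joint cluster 1, the 89 and 51 thyAD II nuclei of joint clusters 0 and 4, and 31 nuclei labelled Immune.

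All groups came from 1 library of 16 pooled thymi of untreated wild-type C57/BL6 females, 6 months old and on standard chow. Attached fat was cleaned off the capsules, the tissue was digested, and nuclei were isolated from the floating layer of mature fat cells. The 10x multiome assay read RNA and transposase-accessible DNA from the same nuclei. The nuclei are not replicates, the animals cannot be told apart after pooling, and the labels and clusters were made from these same nuclei, so there is no test and no p-value between groups.

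Fat cells settle in the thymus as it ages, while the tissue in which T cells mature shrinks. In fat cells PPARγ (gene Pparg) and the C/EBP factors hold open the genes for storing and releasing triglyceride, and brown and beige fat cells also open genes for making heat, such as Ucp1, whose protein uncouples mitochondrial respiration. In the assay a transposase cuts DNA that nucleosomes do not cover, mostly at gene starts and enhancers, so the fragments over a gene report how open its chromatin is and not how much RNA it makes.

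The results turn first on the promoters of a few genes, and 5 windows, chosen after their values were seen, are shown. Cebpa had most fragments in cluster 3 among the windows read, Pparg and Cidec are adipocyte genes with several starts, and Ucp1 and Dio2 are heat genes with fewer fragments in cluster 3 than in cluster 1. They are the 250 bases before the start, 5′ to 3′ on the gene's strand, from RefSeq on GRCm38.p6, and capitals mark TATAAA, the core of a TATA box, on either strand. Cebpa, which encodes C/EBPα, lies on the plus strand at chr7:35119043-35119292. The Pparg start shown is the third of 3, on the plus strand at chr6:115421816-115422065. Cidec encodes a lipid droplet fusion protein and its first start is on the minus strand at chr6:113435761-113436010. Ucp1 is on the plus strand at chr8:83290098-83290347, and Dio2, whose enzyme makes active thyroid hormone, is on the minus strand at chr12:90739039-90739288.
Cebpa: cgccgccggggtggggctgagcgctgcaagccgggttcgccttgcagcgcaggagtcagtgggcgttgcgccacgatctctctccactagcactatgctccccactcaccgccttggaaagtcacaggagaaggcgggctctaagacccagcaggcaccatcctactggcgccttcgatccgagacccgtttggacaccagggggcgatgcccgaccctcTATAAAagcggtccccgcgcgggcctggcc
Pparg: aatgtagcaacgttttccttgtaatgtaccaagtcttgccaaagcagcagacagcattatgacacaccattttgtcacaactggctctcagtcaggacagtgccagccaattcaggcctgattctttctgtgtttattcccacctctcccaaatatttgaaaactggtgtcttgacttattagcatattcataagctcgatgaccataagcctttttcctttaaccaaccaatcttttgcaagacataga
Cidec: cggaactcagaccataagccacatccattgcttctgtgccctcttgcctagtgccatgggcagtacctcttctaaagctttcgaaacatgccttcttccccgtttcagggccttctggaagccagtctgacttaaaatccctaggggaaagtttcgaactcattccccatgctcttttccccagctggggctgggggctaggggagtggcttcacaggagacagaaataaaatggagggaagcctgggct
Ucp1: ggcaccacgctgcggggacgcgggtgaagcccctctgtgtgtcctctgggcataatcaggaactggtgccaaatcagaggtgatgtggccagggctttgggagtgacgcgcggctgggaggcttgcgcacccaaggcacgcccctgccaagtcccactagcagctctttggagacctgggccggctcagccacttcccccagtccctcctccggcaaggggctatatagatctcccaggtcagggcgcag
Dio2: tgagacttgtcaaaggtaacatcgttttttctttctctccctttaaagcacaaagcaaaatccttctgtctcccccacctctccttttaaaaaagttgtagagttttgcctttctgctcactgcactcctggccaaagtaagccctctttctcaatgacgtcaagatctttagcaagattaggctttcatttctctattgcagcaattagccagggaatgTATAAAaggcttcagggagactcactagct
TATAAA was found in 4 of the 26 windows read for 18 adipocyte, thermogenic and regulator genes, those of Cebpa, Dio2, the first Esrrg start and the second Pparg start, and in 12.3% of 32536 promoters searched in the same way. The PPAR-RXR direct repeat, AGGTCA and AGGTCA with 1 base of any kind between them (0.0338% of promoters), and the ERR element TCAAGGTCA (0.375%) were in none of the 26. The half-site AGGTCA, which is part of both, was in 3 windows, those of Ucp1 and of the first and second Pparg starts, and in 14.0% of promoters. Both strands were searched.

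Fragments were counted over the 300 bases from 250 before to 50 after each of these starts and are given per 1000000 fragments of the group (FPM), with exact 95% Poisson intervals. These intervals, and the exact binomial intervals given after the log2 ratios below, cover counting error only, and a fragment was counted once however often it was read. Over all 32850 promoter windows cluster 3 had counts equal to 23.2% of its fragments, with a fragment in overlapping windows counted in each, against 19.7% in cluster 1, 20.4% and 18.3% in thyAD II clusters 0 and 4 and 21.4% in the Immune nuclei, a log2 excess of 0.24, 0.18, 0.34 and 0.12 that the ratios at single promoters include. The Cebpa promoter had 39 fragments in cluster 3, 74.6 FPM (53.1 to 102), against 35.6 FPM in cluster 1, 33.3 and 21.9 in clusters 0 and 4 and 24.9 in the Immune nuclei. Cluster 3 was above all 4 groups there, by a log2 ratio of 1.07 (0.39 to 1.74) over cluster 1, 1.17 (0.50 to 1.82) over cluster 0, 1.75 (0.94 to 2.64) over cluster 4 and 1.55 (0.67 to 2.58) over the Immune nuclei. At the first Cidec start cluster 3 had 36.4 FPM (21.9 to 56.8) and the others 22.2, 25.7, 28.8 and 10.7 in the same order, but at the second it was the lowest group, with 3 fragments, 5.74 FPM, against 18.7, 8.32, 8.06 and 12.5. The third Pparg start had 26.8 FPM (14.6 to 45.0) in cluster 3 and 23.1, 17.4, 11.5 and 10.7 FPM in the others, while at the first cluster 3 was lowest of the adipocyte clusters, with 2 fragments, 3.83 FPM, against 7.12, 9.84 and 8.06. At these 4 starts the ratios over the adipocyte clusters had intervals that include 0, −1.51 (−4.09 to 0.04) over cluster 1 at the second Cidec start among them, and at the first Cidec start the ratio over the Immune nuclei was 1.69 (0.39 to 3.38). The Ucp1 promoter had 1 fragment in cluster 3 and 9 in cluster 1, a log2 ratio of −1.56 (−7.52 to 0.79). Dio2 had 3 and 17, a log2 ratio of −1.22 (−3.81 to 0.39), so neither difference at these 2 promoters exceeded counting error at this depth.

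Cluster 3 was the shallowest of the 5 groups. It held 522549 of the 101060606 fragments in the file (0.517%), and the other groups held between 561387 and 1321508. Per nucleus the fragments ran from 3902 through a median of 8414 to 16869, against medians of 12369 in cluster 1, 14435 and 17339 in clusters 0 and 4 and 16036 in the Immune nuclei. The median nucleus had 4448 peaks with a fragment and 2098 RNA molecules (UMIs), below the 2724 to 3199 of the other adipocyte clusters. Mitochondrial RNA was 5.59% of UMIs at the median, against 3.51% to 5.44% in these clusters and 10.9% in the Immune nuclei. All 317 nuclei were classed as singlets by the authors, and 0 of the 61 barcodes recurred in the 4-month thymic library.

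The chromatin of cluster 3 was also the most concentrated at gene starts among the adipocyte clusters. The deposited enrichment at gene starts had a median of 7.92, with a range from 4.30 to 11.5, against 6.29 to 6.74 in the other adipocyte clusters and 8.09 in the Immune nuclei. At the median, 30.5% of a nucleus's fragments lay within 1 kb of a gene start, against 25.2% to 27.5% in those clusters. Fragments shorter than 147 bases, about the length wrapped on 1 nucleosome, made up 63.2% in cluster 3 and 56.1% to 61.6% in them. The ranges over nuclei overlapped for each of these measures. Summed over the cluster, cut sites in the bin 25 bases upstream of the start were 31.0 times as dense as in the flanks, against 23.3 to 26.0 times in the other adipocyte clusters and 29.2 times in the Immune nuclei. The deposited weight of chromatin in the joint clustering was 0.633 at the median, against 0.539, 0.548 and 0.589 in clusters 1, 0 and 4. All 61 nuclei were in cluster 4 of the clustering by RNA alone, as were 63 of 85 nuclei of cluster 1, all of clusters 0 and 4 and 26 of 31 Immune nuclei.

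**Figure D1:**
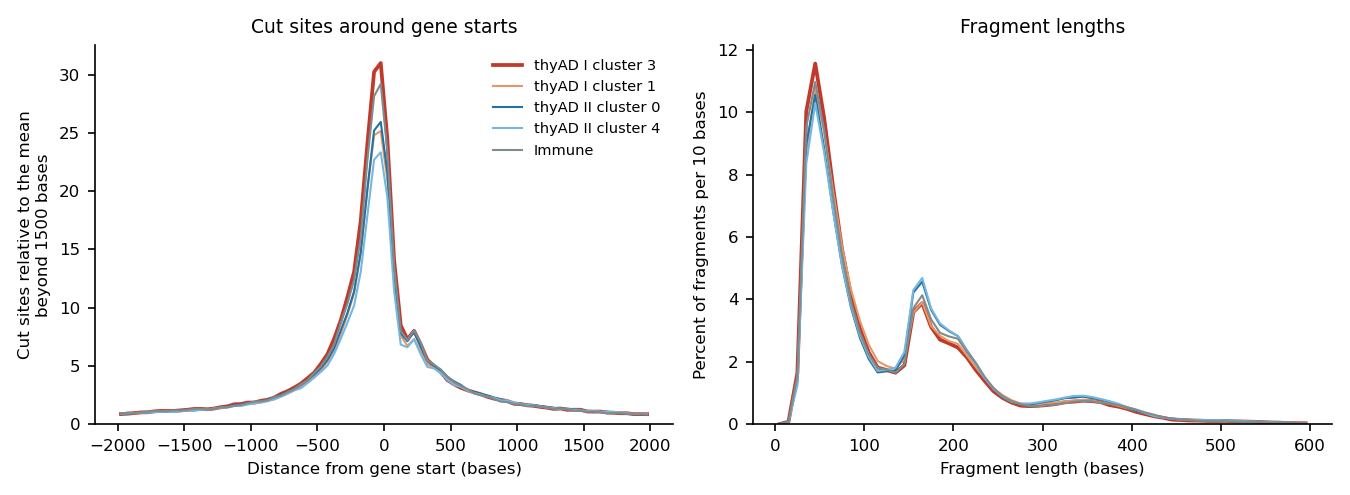
Left, cut-site density by distance from the gene start in bases, relative to the flanks, for the 5 groups; right, the share of fragments by fragment length. Cluster 3 has the highest peak at the start, 31.0 against 23.3 to 29.2 in the other groups.

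The ratios below moved with gene length. Genes were counted over their bodies plus 2 kb on either side, log2 ratios had 0.5 fragment added to each group, and a gene entered the counts with at least 50 fragments over both groups. The median log2 ratio of all genes was 0.04 over cluster 0, 0.11 over cluster 4, 0.10 over the Immune nuclei and 0.07 over cluster 1. With genes split by length into 3 equal classes, it was 0.13, 0.28, 0.13 and 0.19 in the shortest class and in the longest −0.04, −0.06, 0.06 and −0.04. Most list medians are therefore also given after subtracting the median of all genes of the same length class. Ratios of single genes and their intervals are not adjusted in this way, so they include the shift of the gene's length class. The 4 comparisons share the nuclei of cluster 3, so they are not independent of each other. Windows of close neighbours overlap, and a fragment in both counts for both genes.

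The adipocyte label was checked on its defining markers. Pparg (chr6:115360879-115490404) had 272 FPM (229 to 320.3) in cluster 3, 263 in cluster 1, 237 and 203 in clusters 0 and 4 and 143 in the Immune nuclei, with fragments in 45 of the 61 nuclei. Plin1 (chr7:79721164-79732904), which encodes the main coat protein of the lipid droplet, had 147 FPM (116 to 184) in cluster 3, 154 in cluster 1, 132 and 145 in clusters 0 and 4 and 99.8 in the Immune nuclei. Adipoq (chr16:23146536-23157968), the gene of the hormone adiponectin, had 97.6 FPM (72.7 to 128) in cluster 3, 109 in cluster 1, 104 and 112 in clusters 0 and 4 and 55.2 in the Immune nuclei. The 4 adipocyte clusters lay close together at Plin1 and Adipoq, and the Immune nuclei were lowest at all 3 genes. Against the Immune nuclei the log2 ratios were 0.93 (0.53 to 1.35) for Pparg, 0.56 (0.05 to 1.09) for Plin1 and 0.81 (0.15 to 1.51) for Adipoq. At these markers the Immune nuclei were not near 0.

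Over the whole list of 24 adipocyte identity genes, cluster 3 was the most accessible of the 5 groups, at 4327 FPM summed against 3569 in cluster 1, 3607 and 3401 in clusters 0 and 4 and 2374 in the Immune nuclei. Per nucleus the list took 43.3 of 10000 fragments at the median of cluster 3, from 8.89 to 91.7, against 33.5 to 36.9 in the other adipocyte clusters, and the ranges overlapped. A fragment was found at 15 of the 24 genes in the median nucleus and at 18 to 19 in the deeper adipocyte clusters. Of the members with enough fragments, 19 of 24 were above 0 over cluster 0 (median 0.26, 0.23 after the length adjustment), 20 of 23 over cluster 4 (0.35 and 0.17) and 20 of 24 over cluster 1 (0.31 and 0.22). Over the Immune nuclei all 20 that entered were above 0, with a median of 0.94 and 0.88, and with no minimum of fragments all 24 were, with a median of 0.87. The direction held under every scaling tried, but the excess over cluster 1 was 0.15, and that over cluster 4 was 0.12, when groups were scaled to their fragments near gene starts.

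At least 2-fold higher were 9 of these genes over the Immune nuclei, where 3.86% of all genes were, 2 over cluster 4, where 1.52% were, and 0 over clusters 0 and 1 alike, where 0.45% and 1.03% were. The pair over cluster 4 was Cebpa and Cebpb, both C/EBP factors of fat cell differentiation. None of the identity genes was 2-fold lower in any comparison, in which 1.26% of all genes were over cluster 0, 1.05% over cluster 4, 3.86% over the Immune nuclei and 1.34% over cluster 1.

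**Figure D2:**
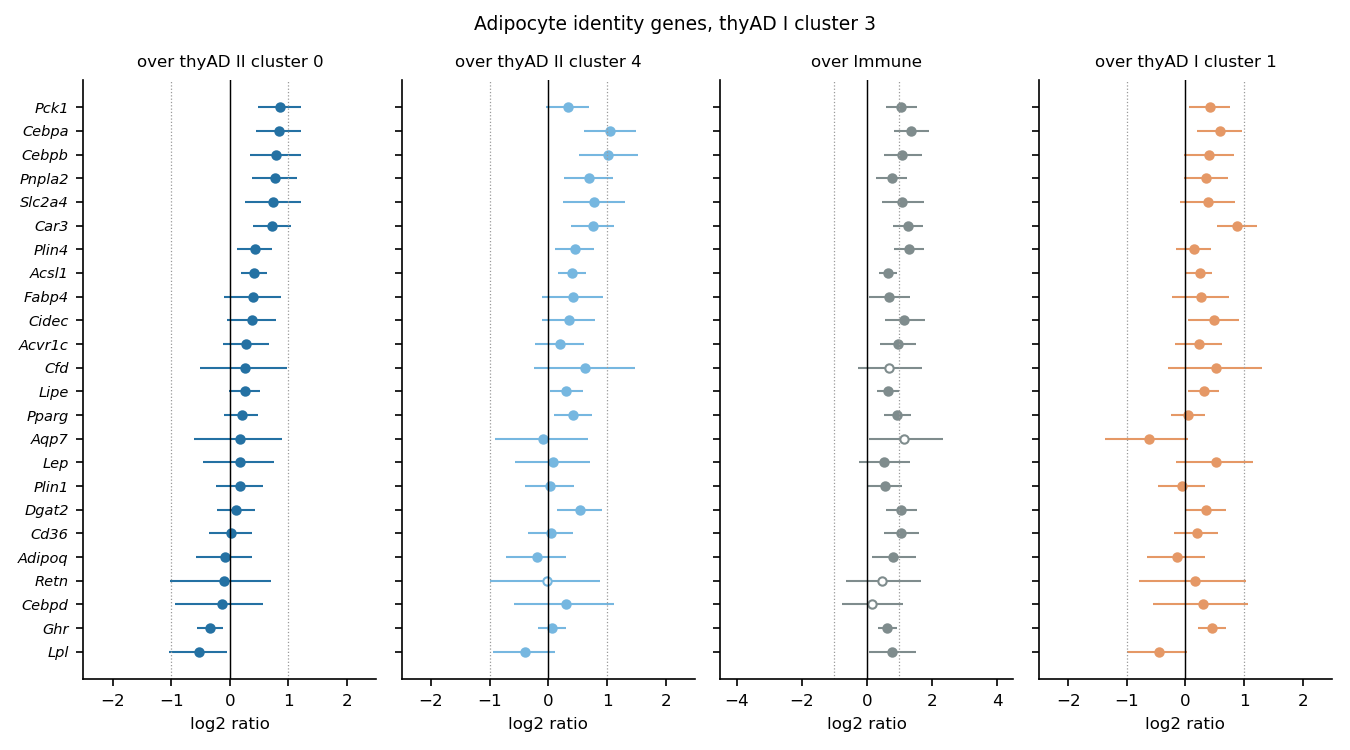
Log2 ratio of FPM at each of the 24 adipocyte identity genes, cluster 3 over each of the 4 other groups, with exact 95% intervals for counting error. Open circles are genes with under 50 fragments over both groups and dotted lines mark 2-fold. Most points lie right of 0 in all 4 panels, and 9 genes pass 2-fold over the Immune nuclei.

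Cebpa and Cebpb, but not Cebpd, stood apart from both thyAD II clusters. Cebpa (chr7:35119293-35121928), a gene without introns, had 100 fragments in 48 of 61 nuclei of cluster 3, and its level was 191 FPM (156 to 233) in cluster 3, 127 in cluster 1, 107 and 92.2 in clusters 0 and 4 and 74.8 in the Immune nuclei. Its log2 ratio was 0.83 (0.45 to 1.21) over cluster 0, 1.05 (0.62 to 1.50) over cluster 4 and 0.59 (0.21 to 0.97) over cluster 1, each above counting error. Cebpb (chr2:167688915-167690432), which acts earlier in differentiation, had 147 FPM (116 to 184) in cluster 3, 111 in cluster 1, 85.5 and 72.6 in clusters 0 and 4 and 69.5 in the Immune nuclei. Its ratio was 0.79 (0.35 to 1.22) over cluster 0 and 1.02 (0.52 to 1.53) over cluster 4, while over cluster 1 the interval of 0.41 (−0.02 to 0.83) includes 0. Cebpd, the third such factor, had 42.1 FPM in cluster 3 and 34.6 to 46.9 in the other adipocyte clusters. At Pparg itself the excess passed counting error over cluster 4, at 0.42 (0.09 to 0.75), but not over cluster 0, at 0.20 (−0.10 to 0.49), or cluster 1, at 0.05 (−0.25 to 0.34).

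Among genes of lipid release and droplet coats, Pnpla2 and Plin4 were above both thyAD II clusters beyond counting error, with no length adjustment. The smaller differences at Plin1 were within counting error. Pnpla2, which encodes the first triglyceride lipase ATGL, had 188 FPM (152 to 229) in cluster 3, 147 in cluster 1, 110.5 and 116 in clusters 0 and 4 and 110.4 in the Immune nuclei. Its window overlaps that of its neighbour Cracr2b, and the log2 ratio was 0.77 (0.38 to 1.14) over cluster 0, 0.69 (0.27 to 1.10) over cluster 4 and 0.36 (−0.02 to 0.72) over cluster 1. Lipe, the gene of hormone-sensitive lipase, had fragments in 59 of 61 nuclei and 358 FPM, against 287, 300.4 and 289 in clusters 1, 0 and 4, and passed counting error over clusters 1 and 4. Plin4, a droplet coat gene whose window overlaps that of Plin5, stood 0.43 over cluster 0, 0.45 over cluster 4, 0.14 over cluster 1 and 1.28 over the Immune nuclei on the log2 scale, and Plin5 itself was at 0.30 over cluster 0, 0.08 over cluster 4, −0.11 over cluster 1 and 1.48 over the Immune nuclei. Cidec had 144 FPM against 103, 110.5 and 113, and 64.1 in the Immune nuclei, and Acvr1c, an activin receptor of mature fat cells, had 159 against 135, 131, 138 and 81.9, with intervals over the adipocyte clusters that include 0 except for Cidec over cluster 1.

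The widest gap between the thyAD I clusters among identity genes was at Car3, the carbonic anhydrase of white fat. Car3 (chr3:14863538-14872381) had 253 FPM (211 to 299.6) in cluster 3, 137 in cluster 1, 153 and 149.8 in clusters 0 and 4 and 105 in the Immune nuclei. Its ratio was 0.88 (0.54 to 1.23) over cluster 1, 0.73 (0.40 to 1.05) over cluster 0 and 0.75 (0.39 to 1.11) over cluster 4, so cluster 3 stood apart from all of them. Pck1 (chr2:173153073-173159274), an early enzyme of glyceroneogenesis, had 211 FPM (173 to 254) in cluster 3, 158 in cluster 1, 117 and 167 in clusters 0 and 4 and 102 in the Immune nuclei, and stood highest over cluster 0 at 0.85 (0.49 to 1.22). Slc2a4, the insulin-responsive glucose carrier GLUT4, was 0.74 (0.26 to 1.21) over cluster 0 and 0.78 (0.25 to 1.31) over cluster 4. Acsl1, which activates fatty acids, had fragments in 60 of 61 nuclei and 505 FPM against 428, 381 and 384 in clusters 1, 0 and 4.

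At other identity genes cluster 3 was lower or differed little. Lpl, the lipase that frees fatty acids from lipoproteins, had 86.1 FPM (62.8 to 115) in cluster 3, 119 in cluster 1, 125 and 114 in clusters 0 and 4 and 49.9 in the Immune nuclei. It was below cluster 0, at −0.52 (−1.05 to −0.05), and its intervals over clusters 1 and 4 include 0. Ghr, the growth hormone receptor, had 452 FPM, below the 569.8 of cluster 0 by a log2 ratio of −0.33 (−0.55 to −0.12) and above the 331 of cluster 1 by 0.45 (0.21 to 0.69). Aqp7, a glycerol channel, had 23 fragments and a ratio of −0.62 (−1.38 to 0.05) over cluster 1. Fabp4, the fatty acid carrier of fat cells, had 109 FPM against 81.8 to 90.7, Cd36, a fatty acid transporter, 174 against 153 to 172, and Dgat2, the last enzyme of triglyceride synthesis, 211 against 145 to 195. These 3 were above every other adipocyte cluster, but only Dgat2 over cluster 4, at 0.54 (0.15 to 0.92), passed counting error. The hormone genes Lep, Retn and Cfd had 35, 17 and 24 fragments in cluster 3, too few to separate it from the other adipocyte clusters.

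Among the metabolic lists, that of fatty acid synthesis stood further above cluster 4 than the identity list did. Its 12 genes of the pathway and its control summed to 2266 FPM in cluster 3, against 1949.6 in cluster 1, 1861 and 1561 in clusters 0 and 4 and 1475 in the Immune nuclei. Their median log2 ratio was 0.64 over cluster 4 (10 of 11 above 0, 0.45 after the length adjustment, against 0.35 and 0.17 for the identity list), 0.24 over cluster 0 (11 of 12) and 0.10 over cluster 1 (8 of 12). Insig1, which holds back the sterol-sensing activators of this pathway, was the highest member over the pooled thyAD II clusters, with 161 FPM (128 to 199) in cluster 3, 98.7 in cluster 1, 85.5 and 85.2 in clusters 0 and 4 and 103 in the Immune nuclei, and its ratio was 0.91 (0.49 to 1.33) over cluster 0, 0.91 (0.45 to 1.39) over cluster 4 and 0.71 (0.28 to 1.13) over cluster 1. Thrsp, a lipogenic gene of fat and liver, was 0.64 (0.09 to 1.18) over cluster 4. Me1 and Scd2 were the lowest members, with 144 and 32.5 FPM against 129 and 43.9 in cluster 0. Chosen after their values were seen, the 3 core enzyme genes Acly, Acaca and Fasn had 197, 559 and 211 FPM in cluster 3 against 88.7, 327 and 121 in cluster 4. Their log2 ratios were 1.15 (0.71 to 1.60), 0.77 (0.53 to 1.01) and 0.80 (0.40 to 1.20). Acly was the 1 member of 11 measured past 2-fold over cluster 4, where 1.52% of all genes were 2-fold higher. Over cluster 1 they were 0.45 (0.07 to 0.81), 0.42 (0.21 to 0.64) and 0.50 (0.13 to 0.85), and over cluster 0 smaller, at 0.25, 0.21 and 0.08, with intervals that include 0.

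The 12 triglyceride synthesis genes had medians of 0.16, 0.28 and 0.09 over clusters 0, 4 and 1 (0.12, 0.13 and 0.06 after the length adjustment). Of 11 measured, 3 were 2-fold higher than in the Immune nuclei, where 3.86% of all genes were. Beside Pck1, Agpat2 was highest over the pooled thyAD II clusters, at 0.52 (0.05 to 0.97) and 0.58 (0.07 to 1.09), and Lpin2 was lowest at −0.54 (−1.31 to 0.13) and −0.62 (−1.42 to 0.09). The 13 lipolysis genes had medians of 0.17, 0.18 and 0.08 (0.05, 0.10 and −0.10 after the length adjustment, 6 of 11 above 0 over cluster 1). Of 10 measured, 3 were 2-fold above the Immune nuclei against the same 3.86%, but 2 of the 10 entered through cluster 3, so this count is a description. Fatty acid uptake genes had 0.11, 0.25 and 0.19 from 11, 10 and 11 measured (−0.01, 0.12 and 0.08 after the length adjustment). With no minimum of fragments the medians of all 14 were −0.02, −0.03 and −0.02, with 7, 7 and 6 above 0, so no direction is given for them. Vldlr, the lipoprotein receptor, was the lowest uptake member not among the identity genes, with 12 fragments and 23.0 FPM (11.9 to 40.1) in cluster 3, 58.7 in cluster 1, 43.1 and 46.1 in clusters 0 and 4 and 33.8 in the Immune nuclei, a log2 ratio of −1.31 (−2.38 to −0.45) over cluster 1. The 17 glycolysis genes had 0.11, 0.20 and 0.18 from 15, 13 and 17 measured (−0.02, 0.01 and 0.07 after the length adjustment). The 20 TCA cycle genes had 0.09, 0.07 and −0.08 from 17, 15 and 18 measured (0.04, −0.04 and −0.21 after it). Suclg1, a subunit of succinyl-CoA ligase, was lower than in cluster 0 at −0.98 (−2.18 to −0.05) and cluster 1 at −1.10 (−2.31 to −0.16), and Pgk1, a glycolytic kinase, was lower than in cluster 1 at −1.22 (−2.42 to −0.28). Over cluster 1, 1 measured member each of the uptake, TCA cycle and glycolysis lists was 2-fold lower, where 1.34% of all genes were. Of these lists 2, 1 and 1 measured members, Vldlr among them, entered through cluster 1, where they are high, so these counts are a description. Over the adipocyte clusters the medians of these 5 lists lay closer to the medians of all genes than the identity list did.

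The 18 fatty acid oxidation genes had medians below those of all genes over the adipocyte clusters, at −0.20 over cluster 0 (6 of 15 measured above 0), −0.09 over cluster 4 (6 of 13) and −0.24 over cluster 1 (5 of 14). After the length adjustment these medians were −0.17, −0.13 and −0.25. Of the members measured 2, 1 and 1 entered through clusters 0, 4 and 1, where they are high, so these medians are a description. With no minimum of fragments the medians of all 18 were −0.14, −0.11 and −0.28, with 8, 8 and 6 above 0. The 18 genes summed to 1159.7 FPM in cluster 3, 1234 in cluster 1, 1128 and 1134 in clusters 0 and 4 and 1012 in the Immune nuclei. The log2 ratios of the sums over clusters 0 and 4, 0.04 and 0.03, were not above the medians of all genes, 0.04 and 0.11. Over the Immune nuclei the median was 0.30 (8 of 11), but 2 of the 11 entered through cluster 3. With no minimum of fragments it was 0.14, with 11 of 18 above 0. Acadm, the medium-chain dehydrogenase, was a member above thyAD II, with 122 FPM (94.3 to 156) in cluster 3, 90.7 in cluster 1, 83.2 and 78.3 in clusters 0 and 4 and 57.0 in the Immune nuclei, a ratio of 0.56 (0.09 to 1.01) over cluster 0 and 0.65 (0.13 to 1.16) over cluster 4. Cpt2, which completes the entry of fatty acids into mitochondria, had 74.6 FPM against 51.8 to 63.1 in the other adipocyte clusters, with intervals that include 0.

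The thermogenic list set the thyAD I clusters apart. Its 19 genes summed to 1384 FPM in cluster 3, close to 1272 and 1395 in clusters 0 and 4 and below 2013 in cluster 1. Over cluster 1 the median log2 ratio was −0.65 (−0.71 after the length adjustment), 2 of 15 members measured were above 0, and 3 of them were 2-fold lower, where 1.34% of all genes were. At the level of cluster 3 in both groups 4 of the 15, these 3 among them, would not have reached 50 fragments, so they entered through cluster 1, where they are high, and the counts are a description. With no minimum of fragments 3 of all 19 were above 0, with a median of −0.65. Per nucleus the list took 14.0 of 10000 fragments at the median of cluster 3, from 4.15 to 27.5, and 20 in cluster 1, from 8.55 to 42.1, so the ranges of nuclei overlapped. Medians in clusters 0 and 4 were 12.6 and 13.7. Over these clusters the list medians were 0.07 and −0.01, and both were below 0, at −0.02 and −0.24, with groups scaled to fragments near gene starts, so no direction is given for them. With only the 63 nuclei of cluster 1 that were in RNA cluster 4, the median over cluster 1 was −0.43.

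**Figure D3:**
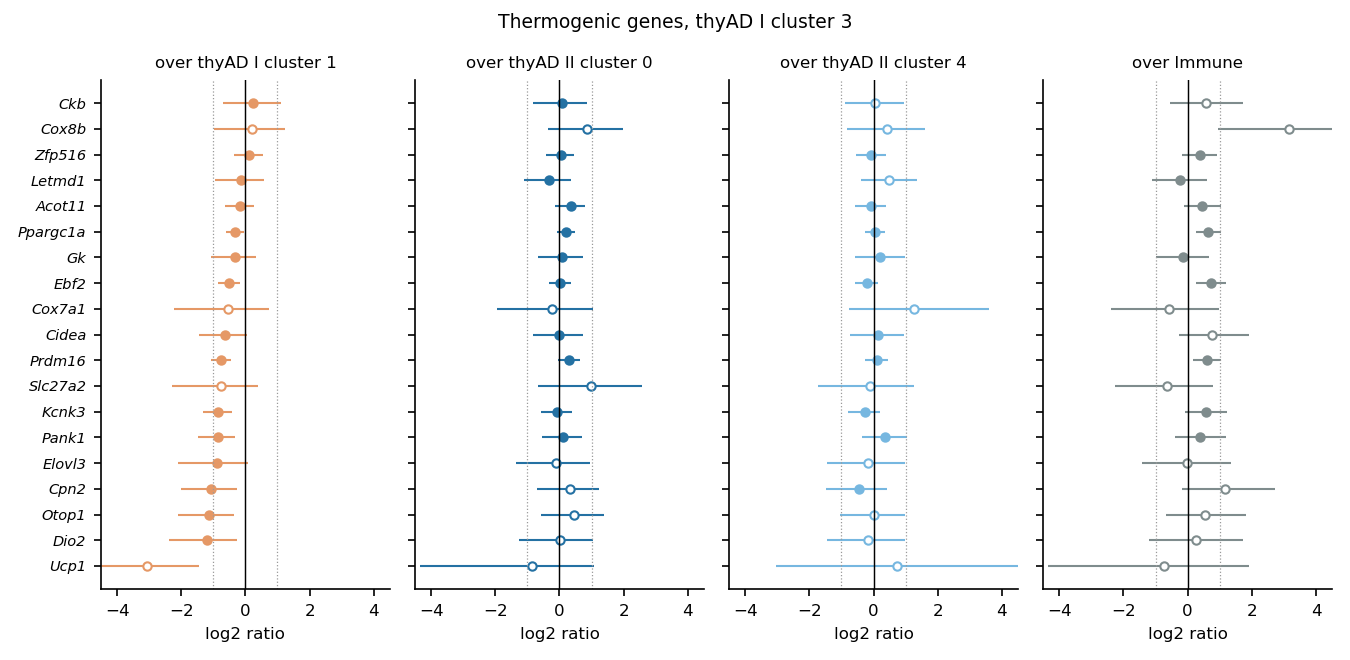
Log2 ratio of FPM at each of the 19 thermogenic genes, cluster 3 over each of the 4 other groups, with exact 95% intervals for counting error, shown no further than 4.5 either way. Open circles are genes with under 50 fragments over both groups and dotted lines mark 2-fold. Most points lie left of 0 over cluster 1, where the median is −0.65 for all 19 genes as for the 15 with enough fragments, some of which entered through their cluster 1 fragments.

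Ucp1 (chr8:83290348-83298456) had 2 fragments in 2 of 61 nuclei of cluster 3, 3.83 FPM (0.464 to 13.8), against 45 fragments in 23 of 85 nuclei of cluster 1, 40.0 FPM (29.2 to 53.6). It had 11 and 2 fragments in clusters 0 and 4 and 4 in the Immune nuclei, so cluster 1 stood alone in its level. The log2 ratio of cluster 3 over cluster 1 was −3.08 (−6.48 to −1.45), and −1.68 with RNA cluster 4 nuclei only. With every nucleus thinned to 3000 fragments, 1 of 61 nuclei in cluster 3 and 9 of 85 in cluster 1 had a fragment there. Dio2 (chr12:90724552-90739038) had 19.1 FPM (9.18 to 35.2) in cluster 3, 45.4 in cluster 1, 19.7 and 21.9 in clusters 0 and 4 and 16.0 in the Immune nuclei, a ratio of −1.19 (−2.39 to −0.25) over cluster 1. Otop1, a proton channel of brown fat, had 28.7 FPM (16.1 to 47.3) in cluster 3, 64.9 in cluster 1, 21.2 and 28.8 in clusters 0 and 4 and 19.6 in the Immune nuclei, and Cpn2, a carboxypeptidase subunit gene of brown fat, 28.7 FPM (16.1 to 47.3) in cluster 3, 61.4 in cluster 1, 23.5 and 40.3 in clusters 0 and 4 and 12.5 in the Immune nuclei. Otop1 and Cpn2, the other members past 2-fold, had ratios over cluster 1 of −1.14 (−2.09 to −0.36) and −1.06 (−2.01 to −0.28). At all 4 genes the intervals of the ratios over clusters 0 and 4 include 0.

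Cluster 1 was also the highest group at several regulators and channels of this list. Prdm16, a zinc-finger gene that sets brown fat identity, had 205 FPM (168 to 247) in cluster 3, 348 in cluster 1, 166 and 191 in clusters 0 and 4 and 135 in the Immune nuclei, and Kcnk3, a potassium channel gene, 97.6 FPM (72.7 to 128) in cluster 3, 177 in cluster 1, 104 and 119 in clusters 0 and 4 and 65.9 in the Immune nuclei. Their ratios over cluster 1 were −0.76 (−1.09 to −0.45) and −0.85 (−1.33 to −0.41). Ebf2, another brown fat determinant, was at −0.50 (−0.84 to −0.17), Pank1, which starts coenzyme A synthesis, at −0.87 (−1.49 to −0.31), and Ppargc1a, the coactivator PGC-1α, at −0.31 (−0.60 to −0.03). These 5 were lower than cluster 1 beyond counting error. The ratios of Cidea, at −0.65 (−1.45 to 0.05), and Elovl3, at −0.88 (−2.09 to 0.09), have intervals that include 0, as do those of Acot11, Letmd1 and Gk, at −0.17, −0.14 and −0.32. Ckb and Zfp516, at 0.25 and 0.10, were the 2 above 0, and Cox7a1, Cox8b, Slc27a2 and Ucp1 were under 50 fragments over both groups.

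Among the 18 regulators around PPAR, ERR and PGC-1, which switch on mitochondrial and oxidative genes, cluster 3 lay between cluster 1 and thyAD II at some genes. Ppara, the receptor that drives fatty acid oxidation, had 105 FPM (79.3 to 137) in cluster 3, 129 in cluster 1, 69.6 and 80.6 in clusters 0 and 4 and 57.0 in the Immune nuclei. It was above cluster 0, at 0.60 (0.09 to 1.09), and its ratios over clusters 4 and 1, 0.39 and −0.29, had intervals that include 0. Esrrg, an orphan receptor of oxidative tissue, had 170.3 FPM (137 to 209.6) in cluster 3, 259.7 in cluster 1, 132 and 139 in clusters 0 and 4 and 130.0 in the Immune nuclei, and was below cluster 1 at −0.60 (−0.97 to −0.26). Ppargc1b, the second PGC-1 coactivator, had 205 FPM (168 to 247) in cluster 3, 298 in cluster 1, 159.7 and 187 in clusters 0 and 4 and 143 in the Immune nuclei, below cluster 1 at −0.54 (−0.87 to −0.22) and above cluster 0 at 0.36 (0.01 to 0.70). These 3 genes had 1 order, cluster 1 above cluster 3 above clusters 0 and 4, but not every neighbour in it differed beyond counting error.

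Other regulators differed. Nrf1, a factor for respiratory chain genes, had 70.8 FPM (49.9 to 97.6) in cluster 3, 133 in cluster 1, 102 and 119 in clusters 0 and 4 and 94.4 in the Immune nuclei, and was below clusters 1 and 4 at −0.90 (−1.47 to −0.39) and −0.73 (−1.33 to −0.19). Rxra, the partner receptor of the PPARs, was above cluster 1 at 0.49 (0.15 to 0.82), and Rxrg was below cluster 4 at −0.88 (−1.79 to −0.10). Gabpa, an ETS factor, was above cluster 0 at 0.64 (0.03 to 1.21), and Tfam, which packages mitochondrial DNA and starts its transcription, had 6 fragments and a ratio of −1.42 (−3.05 to −0.26) over cluster 1. Esrra, Esrrb, Ppard, Pprc1, Rxrb, Ncor1 and Nrip1 had intervals over the adipocyte clusters that include 0. Over the members measured the medians were 0.15, 0.22, 0.45 and −0.05 over clusters 0 and 4, the Immune nuclei and cluster 1. After the length adjustment they were 0.20, 0.21, 0.40 and −0.12. No member with at least 50 fragments over both groups was past 2-fold in any comparison, a number that Tfam did not reach. Of all genes 0.45% to 3.86% were, by comparison and direction. The list median over cluster 4 was −0.01 with scaling to fragments near gene starts.

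T cell genes were far less open in cluster 3 than in the Immune nuclei, and over cluster 1 few had enough fragments to compare. The 15 thymocyte and T cell markers summed to 216 FPM in cluster 3, 317 in cluster 1, 263 and 214 in clusters 0 and 4 and 1094 in the Immune nuclei. Per nucleus the list took a median of 1.94 of 10000 fragments in cluster 3, with 13 of 61 nuclei at 0 and a highest value of 13.5, against 11.5 in the Immune nuclei. All 4 members with enough fragments over both groups were 2-fold lower than in the Immune nuclei, where 3.86% of all genes were, and most of those fragments were Immune, so this count is a description. Cd247, the zeta chain of the T cell receptor, had 21.1 FPM (10.5 to 37.7) in cluster 3, 39.1 in cluster 1, 33.3 and 23.0 in clusters 0 and 4 and 182 in the Immune nuclei, a ratio of −3.05 (−4.16 to −2.21), and Tcf7, a factor of T cell commitment, 61.2 FPM (41.9 to 86.5) in cluster 3, 59.6 in cluster 1, 59.0 and 58.7 in clusters 0 and 4 and 182 in the Immune nuclei, a ratio of −1.55 (−2.19 to −0.98). Chosen after their values were seen, Cd4 and the CD3 genes Cd3d, Cd3e and Cd3g had 1, 0, 1 and 1 fragments in cluster 3 and 40, 32, 17 and 19 in the Immune nuclei. The count of 0 at Cd3d allows up to 3 fragments, or 5.74 FPM. Cd4 had 26, 20 and 11 fragments in clusters 1, 0 and 4, and Lck, the kinase of the T cell receptor, 4 in cluster 3 and 40 in cluster 1, a ratio of −2.06 (−4.16 to −0.75). Both genes were under 50 fragments over clusters 3 and 1 together, so they did not enter the counts there. Over cluster 1 the list median, from 3 genes, was −0.69, and −0.04 with RNA cluster 4 nuclei only, while per nucleus cluster 1 had a median of 2.16 of 10000 fragments, close to that of cluster 3. Of the 3 genes 1 entered through cluster 1, where it is high. With no minimum of fragments 6 of all 15 were above 0, with a median of −0.69, so no direction is given over cluster 1.

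Endothelial markers, 12 genes, summed to 276 FPM in cluster 3 and to 313 to 367 in the other groups, and none was at 0. Pecam1, the vessel adhesion gene, had 26.8 FPM (14.6 to 45.0) in cluster 3, 52.5 in cluster 1, 53.0 and 54.1 in clusters 0 and 4 and 85.5 in the Immune nuclei. Its ratio was below 0 over all 4, at −0.93 (−1.93 to −0.11), −0.94 (−1.93 to −0.14), −0.98 (−1.99 to −0.13) and −1.64 (−2.65 to −0.79). Over clusters 0 and 4, the Immune nuclei and cluster 1, the members measured numbered 5, 4, 4 and 3. Of these, 2, 2, 2 and 1 entered through the other group, where they are high. Pecam1 was among them each time, so its ratios are a description. The medians of all 12, with no minimum of fragments, were 0.06, −0.52, −0.02 and −0.07 in that order, with 6, 3, 6 and 5 above 0. No direction is therefore given for the list over clusters 0 and 1 and the Immune nuclei. After thinning to 3000 fragments, 13.1% of nuclei in cluster 3 had a fragment at Pecam1, against 14.1%, 20.2% and 9.80% in clusters 1, 0 and 4, so the share was not lowest in cluster 3. The defining genes Cdh5 and Kdr had 4 and 5 fragments in cluster 3. Egfl7 was the highest member over the pooled thyAD II clusters, at 68.9 FPM against 62.1 and 42.6. Lists for macrophages (155 FPM in cluster 3, 129.9 to 155 elsewhere), dendritic cells (182, 176 to 217), fibroblasts and progenitors (134, 117 to 157), mural cells (201, 173 to 231) and thymic epithelium (178, 144 to 239.6) had only 0 to 4 measured members in each comparison. None of these members was past 2-fold, where 0.45% to 3.86% of all genes were by comparison and direction. With so few members this says nothing about these cell types. The B cell list, at 549 FPM, was mostly Ebf1, which fat cells also use, at 421 FPM.

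**Figure D4:**
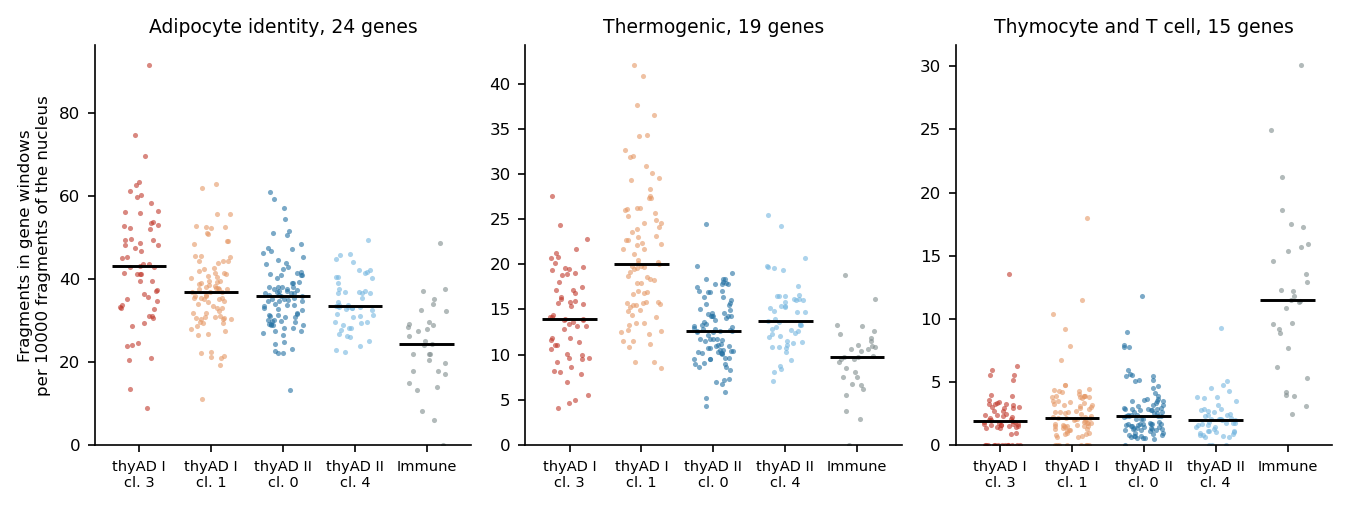
Fragments at the members of a list per 10000 fragments of each nucleus, for nuclei of the 5 groups, with 1 point a nucleus and the median marked. Cluster 3 has the highest median for adipocyte identity, 43.3, a thermogenic median of 14.0 against 20 in cluster 1, and a T cell median of 1.94 against 11.5 in the Immune nuclei.

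Of 20 factors that act on the thymus (cytokines, chemokines, growth factors and Notch ligands), 10 or fewer had enough fragments in any comparison. Their medians were −0.56 over cluster 0, −0.19 over cluster 4 and 0.03 over cluster 1, from 10, 6 and 7 genes. Over cluster 0, 3 of the 10 entered through cluster 0, where they are high, so that median is a description. All 20 members, with no minimum of fragments, had medians of −0.34, −0.11 and −0.11, with 8, 9 and 10 above 0. No direction is therefore given over cluster 1. Kitl, the stem cell factor gene, had 16 fragments and 30.6 FPM against 56.8 in cluster 0, a ratio of −0.86 (−1.77 to −0.10). Dll1, a Notch ligand, had 9 fragments and an interval that includes 0. Ccl25, the chemokine that draws T cell precursors, had 67.0 FPM (46.7 to 93.2) in cluster 3, 44.5 in cluster 1, 43.1 and 46.1 in clusters 0 and 4 and 44.5 in the Immune nuclei, and Vegfa, the vessel growth factor, 186 FPM (151 to 226) in cluster 3, 155 in cluster 1, 176 and 131 in clusters 0 and 4 and 96.2 in the Immune nuclei. Vegfa was above cluster 4, at 0.50 (0.09 to 0.90), and over the other adipocyte clusters both genes had intervals that include 0.

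Across all genes, 56 of 12449 were at least 2-fold higher in cluster 3 than in cluster 0 (0.45%) and 157 at least 2-fold lower (1.26%), and over cluster 4 they were 147 and 101 of 9646 (1.52% and 1.05%). Over the Immune nuclei there were 284 in each direction of 7366 (3.86%), and over cluster 1 there were 114 and 149 of 11116 (1.03% and 1.34%). With groups scaled to fragments near gene starts the counts of higher and lower genes were 33 and 229, 36 and 233, 185 and 349, and 42 and 269 in the same order. TMM scaling gave 78 and 193 over cluster 1. After the length adjustment they were 52 and 138 over cluster 4, 174 and 353 over the Immune nuclei, and 56 and 190 over cluster 1. The balance turned in windows of 1 kb around gene starts, where 5059, 2938, 2076 and 4095 genes entered in the same order. There 61 and 36, 157 and 1, 54 and 13, and 82 and 20 genes were higher and lower. With a pseudocount of 5 the counts were 72 and 15, 120 and 41, 180 and 200, and 120 and 27. A larger pseudocount adds more FPM to cluster 3, the shallowest group. With it the median of all genes rose from 0.04 to 0.16 over cluster 0 and from 0.07 to 0.16 over cluster 1. Over the Immune nuclei, closest in depth, it stayed at 0.10. Which direction held more genes depended on the setting, and with the larger pseudocount on group depth.

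The head of the ranking over both thyAD II clusters came from single nuclei. At Snrpn, an imprinted gene whose window shares fragments with Snhg14, 82 of 96 fragments (85.4%) came from 1 nucleus, the deepest of cluster 3, with 16869 fragments. At Lmx1a 51 of 67 (76.1%) came from that same nucleus, and without the deepest nucleus of each group its log2 ratio over cluster 4 was −0.33. At Slc24a4 37 of 55 (67.3%) came from 1 nucleus. Among 2292 genes with at least 50 fragments in cluster 3 the median share of the top nucleus was 7.02%, and 6 genes exceeded 50%. Without the nucleus with most fragments at the gene in each group, the log2 ratio of Snrpn was −0.52 over cluster 0 and −0.80 over cluster 4, in place of 2.06 and 1.79. Lmx1a gave 0.53 and −0.17 in place of 2.44 and 1.70, and Slc24a4 0.19 and 0.45 in place of 1.63 and 1.85.

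The genes that led both thyAD II clusters without their top nucleus were Cntnap2, Hmgb2, Ahsa2, Cracr2b, Stk11, Slc25a42, Insig1, Cebpa, Zfp771 and Mbd6, a ranking made after the values were seen. Cntnap2, a long neuronal adhesion gene, had 312 FPM (266 to 364) in cluster 3, 175 in cluster 1, 139 and 126 in clusters 0 and 4 and 306 in the Immune nuclei, so the Immune nuclei matched cluster 3 there, and its ratio without the top nucleus was 0.96 over cluster 0 and 1.11 over cluster 4. Hmgb2 (chr8:57511843-57515999), a chromatin protein gene, had fragments in 39 of 61 nuclei and 117 FPM (89.3 to 150.0) in cluster 3, 48.0 in cluster 1, 61.3 and 43.8 in clusters 0 and 4 and 78.4 in the Immune nuclei. Its ratio was 0.93 (0.43 to 1.43) over cluster 0, 1.41 (0.81 to 2.04) over cluster 4 and 1.28 (0.73 to 1.84) over cluster 1. Ahsa2, a co-chaperone gene, had 142 FPM against 72.6 to 74.7 in the other adipocyte clusters, Cracr2b, next to Pnpla2, 130.1 against 57.6 to 67.3, and Stk11, the gene of the kinase LKB1, 153 against 81.7 to 86.3. Impa2, eighth in the planned order, had 14 of its 72 fragments from 1 nucleus.

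Among genes with at least 50 fragments in each thyAD II cluster, Dock11 was the lowest against both of them. Dock11 (chrX:35887271-36076570), which activates the GTPase CDC42, had 9 fragments in cluster 3 against 90 and 66 in clusters 0 and 4, or 17.2 FPM (7.88 to 32.7) in cluster 3, 44.5 in cluster 1, 68.1 and 76 in clusters 0 and 4 and 44.5 in the Immune nuclei. Its ratio was −1.91 (−3.16 to −0.99) over cluster 0 and −2.08 (−3.33 to −1.13) over cluster 4. Stab2, a scavenger receptor gene of sinusoidal endothelium, had 30.6 FPM (17.5 to 49.7) in cluster 3, 39.1 in cluster 1, 83.2 and 70.3 in clusters 0 and 4 and 19.6 in the Immune nuclei, with ratios of −1.40 (−2.30 to −0.68) and −1.17 (−2.09 to −0.39) over clusters 0 and 4. Fam114a1, Slc35f4, Banf2os, Cpne8, Iqcm, Gulp1, Myo19 and Snapc3 completed the 10 lowest. Their ratios ran from −1.30 to −0.96 over cluster 0 and from −1.51 to −1.10 over cluster 4, on 11 to 23 fragments in cluster 3. Without the nucleus with most fragments at the gene in each group, Iqcm was at −0.91 over cluster 4.

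Over the Immune nuclei the lowest genes, among those with at least 50 fragments in that group, were Sla, Ikzf1, Cd247, Fam78a and Colq. Sla, which encodes an adaptor that damps T cell receptor signalling, had 3 fragments in cluster 3 and 67 in the Immune nuclei, a ratio of −4.17 (−6.69 to −2.77). Ikzf1 (chr11:11684962-11772930), the lymphoid factor Ikaros, had 7 against 71, a ratio of −3.15 (−4.60 to −2.12), and 67, 49 and 25 in clusters 1, 0 and 4. Fam78a had 8 against 68 and Colq 10 against 66. On the other side, Lrp3 (chr7:35200878-35217392), a receptor gene near Cebpa on the same chromosome, had fragments in 33 of 61 nuclei and 124 FPM (96.0 to 159) in cluster 3, 64.9 in cluster 1, 92.3 and 100.2 in clusters 0 and 4 and 23.2 in the Immune nuclei, a ratio of 2.38 (1.55 to 3.41) over the Immune nuclei. Phlda3, a p53 target that restrains AKT, had 107 FPM (81.0 to 139) in cluster 3, 78.3 in cluster 1, 56.8 and 71.4 in clusters 0 and 4 and 30.3 in the Immune nuclei, a ratio of 1.79 (1.02 to 2.70). Snrpn, Lmx1a and Fam104a, the other 3 of the 5 highest, had 43.1% or more of their fragments from 1 nucleus.

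Over cluster 1 the lowest genes, among those with at least 50 fragments in cluster 1, were Cerkl, Zfp831, Ikzf1, Acss1 and Pdia5. Cerkl, a ceramide-kinase-like gene, had 7 fragments in cluster 3 and 74 in cluster 1, but 16 and 15 in clusters 0 and 4, so cluster 1 stood alone. Its ratio was −2.21 (−3.66 to −1.18). Acss1, the mitochondrial acetate-activating enzyme, had 15.3 FPM (6.61 to 30.2) in cluster 3, 58.7 in cluster 1, 18.9 and 21.9 in clusters 0 and 4 and 37.4 in the Immune nuclei, with a ratio of −1.86 (−3.21 to −0.88), and −1.20 with RNA cluster 4 nuclei only. Ikzf1 was at −2.06 (−3.52 to −1.03), and −1.52 with those nuclei only. Zfp831 was at −2.13 (−3.38 to −1.21) and Pdia5, a protein disulfide isomerase gene, at −1.72 (−2.90 to −0.82). Of the 5 highest, Snrpn, Lmx1a, Slc24a4 and Far2 had most of their fragments from 1 nucleus, 33 of 56 at Far2, and Hmgb2 did not.

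**Figure D5:**
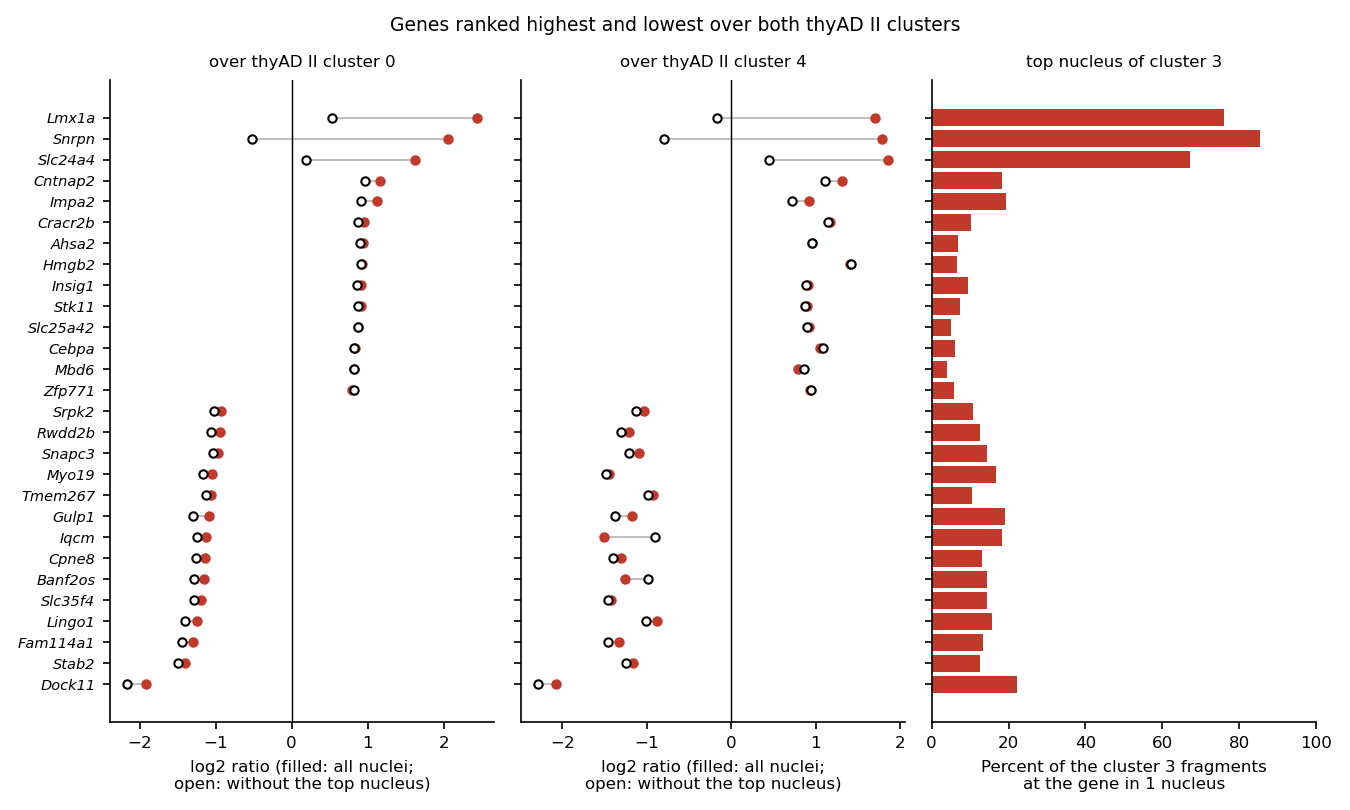
Log2 ratios of the genes ranked highest and lowest in cluster 3 over both thyAD II clusters, with all nuclei (filled) and without the nucleus with most fragments at the gene in each group (open), over cluster 0 on the left and cluster 4 in the middle. Bars on the right give the percent of a gene's fragments in cluster 3 that came from 1 nucleus, 85.4% at Snrpn, 76.1% at Lmx1a and 67.3% at Slc24a4, whose open circles lie far below their filled ones.

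Levels of genes per length were in nearly the same order in all groups. Over 5303 genes the Spearman correlation of fragments per kilobase with cluster 3 was 0.978 for cluster 1, 0.981 and 0.975 for clusters 0 and 4 and 0.9505 for the Immune nuclei, a description across genes that share gene length, base composition and library.

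RNA of these genes was read beside the chromatin in another thymic library, of 6 pooled thymi of 4-month males, which differs in age and sex and whose labels Ad I and Ad II were given separately. No comparison is made across the libraries. Ppara had 1193 CPM (UMIs per 1000000 of the label) in the 35 Ad Ia nuclei, 2278 in the 49 Ad Ib and 17.4 in the 231 Ad IIa, and Esrrg 398, 732 and 4.98. Car3 had 4447, 936 and 321 CPM, Lipe 1482, 529 and 152, and Plin1 1085, 651 and 9.96. These RNA levels, for genes picked without a set rule from 328 matched ones, were higher in Ad I than in Ad IIa nuclei. The labels Ad IIb and Ad IIc, with 16 and 34 nuclei, are not given here. Ucp1 had 1, 4 and 7 UMIs, or 36.2, 163 and 17.4 CPM, and Cebpa 2, 0 and 5 UMIs. The exact interval of Ucp1 in Ad Ib, 44.3 to 417 CPM, lay above that in Ad IIa, 7.01 to 35.9.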

How the data were processed

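The chromatin library was 1 multiome library of 16 pooled thymi. Its fragments were made with Cell Ranger ARC 2.0.2 on mm10, per the submitters' processing notes, and the deposited file lists each fragment with its barcode and read count. For each nucleus the authors deposited counts of UMIs, fragments and detected features, the percent of mitochondrial UMIs, the enrichment ratio at gene starts and the nucleosome signal ratio, and the fraction (0 to 1) that each assay weighs in the joint clustering, made with Seurat 5.1.0 per the submitters' processing notes. The copy of this table used here stops inside row 318, so later nuclei were not analysed here, nor was the 6-month RNA matrix. The 4-month RNA matrix holds deposited UMI counts (cellranger 7.2.0, per the file headers), summed per label and scaled to CPM of nuclear-encoded genes.

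Fragments were assigned to groups by barcode and counted over 49943 genes (body plus 2 kb, RefSeq coordinates of GRCm38), per 1000000 fragments of the group (FPM). Each fragment was counted once, whatever its reads. All 284 list genes in 25 lists were matched. Ratios used a pseudocount of 0.5, exact 95% binomial intervals and a minimum of 50 fragments over both groups, and called means at least 2-fold. The gene table gives no strand for every gene, so gene starts came from 27025 genes with a RefSeq promoter. No doublet caller was run, and the authors' singlet class was taken over. With 61 nuclei and 522549 fragments, a count of 0 allows 3 fragments, or 5.74 FPM.

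The genes named were all of the identity and thermogenic lists and, with 1 exception, of the PPAR, ERR and PGC-1 list, the 2 highest and 2 lowest of every other list over pooled thyAD II, the 10 highest and lowest over both thyAD II clusters, and the 5 highest and lowest over the Immune nuclei and over cluster 1. The exception is counted in the list's values and is not reported here by name. Predicted, mitochondrial and ribosomal protein genes were left out of rankings. To rank as higher a gene needed at least 50 fragments in cluster 3, and to rank as lower at least 50 in each group compared. Ranked genes thus entered through the group where they are higher, and the ranks are a description. The members, lists and rules were chosen with earlier results of these data known. Alternatives were cut sites, minimums of 20 and 100 fragments, edgeR TMM scaling, scaling to fragments near gene starts, equal weight per nucleus, windows of 1 kb around gene starts, a pseudocount of 5, nuclei with at least 3000 fragments, thinning to 3000 fragments and leaving out the deepest nucleus of each group. Leaving out the nucleus with most fragments at a gene, RNA cluster 4 nuclei only, the length adjustment and the 300-base promoter windows were chosen after seeing the data. The ratios and their intervals were tested on simulated sums per gene without spread between nuclei, and the counting of fragments was not. Python 3.11.15, numpy 2.4.6, pandas 2.3.3, scipy 1.17.1, R 4.3.3 and edgeR 4.0.16 were used.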

Additional observations from a re-analysis of the deposited data

How the results depend on the processing

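No paired analysis was possible because all nuclei came from 1 library and the result comes from no test. Counts below are genes at least 2-fold higher and lower, in the order cluster 0, cluster 4, Immune and cluster 1, against 56 and 157, 147 and 101, 284 and 284, and 114 and 149 as reported. With other minimums of fragments they were 254 and 796, 411 and 629, 941 and 1076, and 383 and 709 at 20 fragments, and 11 and 15, 33 and 14, 79 and 68, and 16 and 20 at 100, where fewer genes enter. Cut sites gave 157 and 705 of 17577, 336 and 487 of 15551, 799 and 818 of 13484, and 296 and 589 of 16592. With scaling to fragments near gene starts, 33 were higher than cluster 0 and 185 than the Immune nuclei, with 36 and 233 over cluster 4 and 42 and 269 over cluster 1. Equal weight per nucleus gave 91 higher than cluster 0. A pseudocount of 5 gave 72 and 15, 120 and 41, 180 and 200, and 120 and 27. Windows of 1 kb around gene starts gave 61 and 36 of 5059, 157 and 1 of 2938, 54 and 13 of 2076, and 82 and 20 of 4095. With these 2 settings more genes were higher than lower over clusters 0 and 1 as well.

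These settings were added after seeing the data. Without the nucleus with most fragments at the gene, 24 were higher and 241 lower over cluster 0, of 11543. In the same setting 184 of 6145 were lower over the Immune nuclei and 72 of 10139 higher over cluster 1. After the length adjustment 37, 52, 174 and 56 were higher over clusters 0 and 4, the Immune nuclei and cluster 1. With RNA cluster 4 nuclei only, 73 of 9246 were lower over cluster 1. The cause of these moves was not tested.

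In gene start windows the identity list median was 0.57, 0.54 and 1.15 over clusters 0 and 4 and the Immune nuclei, from 13, 11 and 9 genes. All genes had medians of 0.18, 0.41 and 0.10 there. With scaling to fragments near gene starts the identity median was 0.15 over cluster 1. That scaling moved the median of all genes from 0.11 to −0.12 over cluster 4 and from 0.07 to −0.09 over cluster 1. The thermogenic median over cluster 0 was −0.27 in gene start windows, from 3 genes. The regulator median was 0.52 over cluster 4 in these windows, from 8 genes, and 0.063 over cluster 0 with scaling to fragments near gene starts. The T cell median over cluster 4, from 2 genes, was 0.05 as reported, 0.022 with TMM and −0.17 with scaling near gene starts. From the same number it was 0.078 with equal weight, 0.14 with a pseudocount of 5 and 0.029 after the length adjustment. With cut sites it was 0.030, from 4 genes, and without the top nucleus at the gene −0.061, from 1 gene. Without the deepest nucleus of each group, Snrpn was at −0.61 and −0.92 over clusters 0 and 4, and Lmx1a at −0.33 over cluster 4 and −0.090 over cluster 1. Without the top nucleus at the gene, Snrpn was at −0.52 and −0.80. No nucleus had under 3000 fragments, so that minimum changed nothing. Depth limits the list genes with under 50 fragments over both groups, Ucp1 among them.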
